A study of Mus musculus with 12 samples.

Results

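Prkcd, Tcf7l2, Rora, Lef1, Lhx9, Gbx2 and Ramp3 are genes that mark the thalamus of the adult mouse, and here they were followed across 12 arrays of hypothalamic RNA. These 7 genes were chosen from measured values of the same arrays, because their levels rose and fell together from pool to pool. Their correlations and their spread are therefore a description, and no test is given for them. The array carried 17 probes whose gene name equals 1 of the 7, out of 41174 probes in all. RNA came from male ICR mice, an outbred stock, which were 3 weeks old at the start, had water in both drinking tubes up to day 5, and then either kept water in both tubes or could choose freely between a tube of water and a tube of 5% or 10% alcohol. Drinking lasted to day 57 by the study's methods, whereas the sample labels give day 51 for the removal of the tissue. Water-only mice (9 animals) gave 3 pools of 3 mice each, and alcohol mice (19 animals) gave 9 pools of 1 to 3 mice. The sample titles and descriptions divide the alcohol pools into low drinkers, early high drinkers and late high drinkers, with 3 pools in each, and do not say which alcohol strength a pool drank. Pools hold separate animals, so a value stands for the average of its mice, or for a single mouse where the pool held 1.

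The thalamus lies directly above the hypothalamus and relays sensory and motor signals to the cortex. Tcf7l2 and Lef1 are transcription factors of the Wnt pathway, in which stabilized beta-catenin binds TCF/LEF proteins to switch on target genes, and both stay active in adult thalamic neurons. Gbx2 and Lhx9 are homeobox factors that take part in forming thalamic neurons. Rora is a nuclear receptor that is abundant in sensory relay nuclei. Prkcd, protein kinase C delta, and Ramp3, a partner of the calcitonin-family receptors, are abundant in thalamic relay neurons of the adult. The study's methods say that the hypothalamus was dissected and do not describe where its borders were cut.

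Each level below is the log2 of the background-corrected intensity minus the log2 of the 75th percentile of its array. A level of 0 is therefore the upper quartile of the array, and a difference of 1 is a doubling of the intensity. Levels are compared between arrays for the same probe and not between probes. Each of 3 slides carried 4 arrays. On slide 1, low drinker pool 1 lay beside all of the water pools. On slide 2, a pair of low drinkers (pools 2 and 3) lay beside a pair of early high drinkers (pools 1 and 2). Slide 3 carried every late high drinker and the last of the early ones, pool 3. Slide 1 was scanned on another day than slides 2 and 3. Water pools were on slide 1 alone, so the slide and the drinking group are partly confounded. The share of spots well above background lay between 67.0% and 79.3%, and the 75th percentile of intensity between 1512 and 1853. Low drinker pool 2 had the highest lower-quartile intensity, 63.2 against at most 34.0 on the other alcohol arrays. Of transcription factors of hypothalamic nuclei, 10 of 12 were well above background on every array, as were all 15 measured hypothalamic peptide genes. Otp had no usable value on any array. This detection cannot check the tissue label, since genes listed for other tissues were often detected as well. On every array, 6 of 7 striatum, 6 of 6 oligodendrocyte and 3 of 3 blood genes were well above background. For cortex and hippocampus the count was 4 of 7, and for the choroid plexus 4 of 6. It was 3 of 5 for the pituitary and 2 of 5 for the habenula.

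Of the 17 probes, 14 were well above background on all 12 arrays and 16 passed the filter for testing. The exception was A_52_P333110 of Lef1, which was well above background on 0 arrays. A_52_P643919 of Lhx9 was well above background on 4 arrays and A_52_P494915 of Tcf7l2 on 7. Each gene is represented below by the probe with its highest mean level. In 5 genes with over 1 probe, 7 further bright probes followed that representative with a Pearson r between 0.78 and 0.99 over the 12 arrays. The 2 probes of Prkcd gave an r of 0.99 although they read different stretches of the transcript. The lowest value, 0.78, belonged to A_52_P146043 of Tcf7l2. The sequences of the second Prkcd probe and of this Tcf7l2 probe are shown because they are the most and the least alike to the brightest probe of their gene.
Prkcd A_52_P197498: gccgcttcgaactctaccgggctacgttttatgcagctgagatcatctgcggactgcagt
Tcf7l2 A_52_P146043: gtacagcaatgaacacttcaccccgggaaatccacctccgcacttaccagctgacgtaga
Both are 60 bases long, and the array files place them on mm9. The Prkcd probe is at chr14:31414383-31414970 on the minus strand, where its bases are spread over 588 positions, as in a probe that lies across an exon junction. The Tcf7l2 probe is at chr19:55982975-55983034 on the plus strand. No exon annotation of mm9 was used here.

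Prkcd varied more than the other 6 genes. Its level was 0.10, 0.04 and -0.38 in water pools 1 to 3, and -1.24, 0.83 and 1.48 in low drinker pools 1 to 3. It was -0.91, -1.10 and 1.20 in early high drinker pools 1 to 3, and 0.30, -0.40 and 2.13 in late high drinker pools 1 to 3. The 3 water pools lay close together, whereas each alcohol group held at least 1 pool far from its others. Between low drinker pool 1 and late high drinker pool 3 the intensity of Prkcd differed 10.4-fold. Its standard deviation (SD) over the 12 arrays was 1.07, and 0.123% of the 26040 probes well above background on every array had a larger one. The median SD of those probes was 0.129. In bulk tissue, a larger number of cells of a type and more RNA per cell cannot be told apart.

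Ramp3 followed nearly the same order of pools (rho 0.99 with Prkcd). Its level was 0.73, 0.68 and 0.40 in water pools 1 to 3, and -0.33, 1.22 and 1.62 in low drinker pools 1 to 3. It was -0.07, -0.47 and 1.43 in early high drinker pools 1 to 3, and 0.88, 0.60 and 2.04 in late high drinker pools 1 to 3. Among alcohol pools, 3 were below every water pool, namely low drinker 1 with early high drinkers 1 and 2, whereas 5 were above, namely low drinkers 2 and 3, early high drinker 3 and late high drinkers 1 and 3. The intensity spanned 5.67-fold, and its SD was 0.77.

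The Wnt factors Tcf7l2 and Lef1, by their brightest probes, differed in how closely they kept to this order. Tcf7l2 was at 2.15, 2.15 and 1.89 in water pools 1 to 3, and at 1.69, 2.41 and 2.42 in low drinker pools 1 to 3. It was at 1.79, 1.48 and 2.76 in early high drinker pools 1 to 3, and at 2.72, 2.59 and 3.06 in late high drinker pools 1 to 3. All 4 pools on slide 3 were above every pool of slides 1 and 2, and the slides held 64.3% of the variance of Tcf7l2. For the other 6 genes this share lay between 13.9% and 30.3%. Lef1 had the narrowest range of the 7, 1.72-fold, from -1.24 in low drinker pool 1 to -0.46 in late high drinker pool 3. Early high drinker pool 1, low in the other 6 genes, was at -0.76 for Lef1, above all 3 water pools. The second bright Lef1 probe, A_51_P501145, spanned 2.09-fold, and by it early high drinker pool 1 was at -1.40, below water pools 1 and 2 (-1.27 and -1.30). Its r with the marker mean was 0.94, beside 0.81 for the brightest probe, so the departure of Lef1 was seen in 1 of its 2 bright probes.

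The homeobox genes Gbx2 and Lhx9 were again highest in late high drinker pool 3 and lowest in early high drinker pool 2. Gbx2 was at -2.11, -2.58 and -2.54 in water pools 1 to 3, and at -2.78, -1.45 and -1.52 in low drinker pools 1 to 3. It was at -2.72, -2.997 and -1.75 in early high drinker pools 1 to 3, and at -2.12, -2.14 and -1.09 in late high drinker pools 1 to 3, a range of 3.75-fold. Lhx9 ran from -1.54 to -0.37, a range of 2.25-fold. The nuclear receptor Rora ran from 0.48 in early high drinker pool 1 to 1.56 in late high drinker pool 3, a range of 2.11-fold, while the 3 water pools lay between 0.85 and 1.00.

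**Figure D1:**
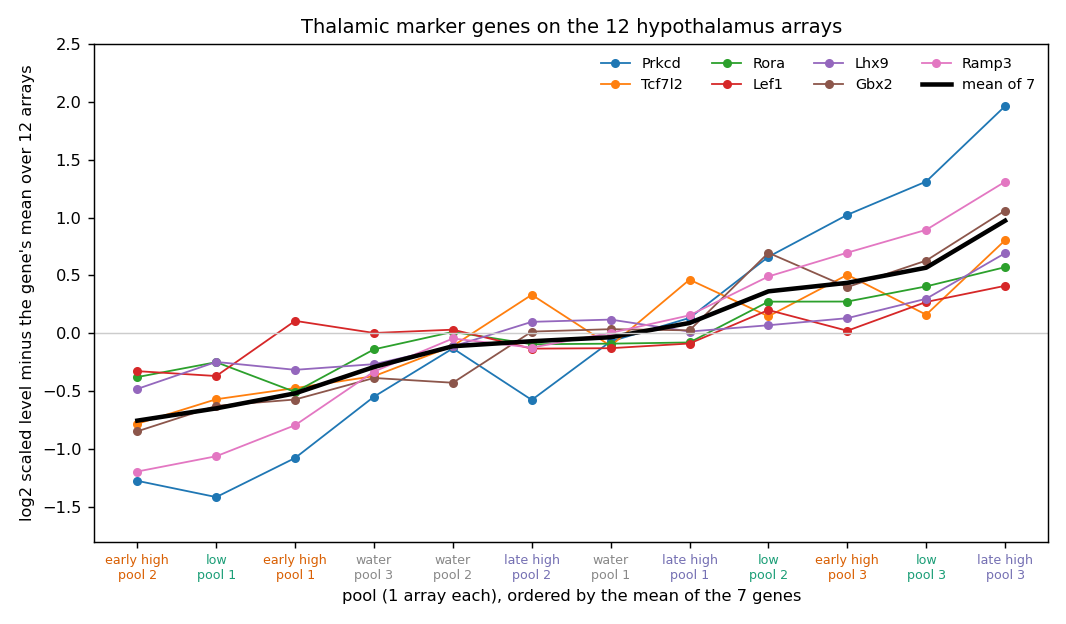
The vertical axis gives the log2 scaled level of each of the 7 genes minus that gene's mean over the 12 arrays, and the horizontal axis the 12 pools ordered by the mean of the 7 genes (black line). Prkcd and Ramp3 climb most steeply, Lef1 least, and late high drinker pool 3 is highest for each gene.

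Late high drinker pool 3 was the highest array for 7 of the 7 genes. Early high drinker pool 2 was the lowest for 4 genes, low drinker pool 1 for 2 (Prkcd and Lef1) and early high drinker pool 1 for Rora. The mean of the 7 levels, called the marker mean here, gave one position per array. It was -0.02, -0.10 and -0.28 in water pools 1 to 3, and -0.64, 0.37 and 0.58 in low drinker pools 1 to 3. It was -0.51, -0.74 and 0.45 in early high drinker pools 1 to 3, and 0.10, -0.06 and 0.98 in late high drinker pools 1 to 3. The water pools fell in the middle of the order, with 3 alcohol pools below them, 5 above the highest of them and late high drinker pool 2 between them. Against the 3 water pools, late high drinker pool 3 and low drinker pool 3 were above all of them for 7 genes each, and early high drinker pool 2 was below all of them for 7. The marker mean had an r of 0.23 with the 75th percentile of the array, 0.26 with the 25th percentile and -0.19 with the share of spots well above background (n = 12 arrays, rho 0.32, 0.25 and -0.14). Without the 2 arrays farthest from the median of the marker mean, early high drinker pool 2 and late high drinker pool 3, these values of r were -0.05, 0.54 and 0.17.

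Over the 12 arrays, the 21 pairs of genes had a Pearson r between 0.61 and 0.99, with a median of 0.89. Spearman's rho lay between 0.48 and 0.99, with a median of 0.85. Prkcd and Ramp3 were the most alike pair (r = 0.99, rho 0.99) and Tcf7l2 and Lef1, both TCF/LEF factors, the least alike (r = 0.61, rho 0.48). With each slide's mean removed, r lay between 0.75 and 0.99, with a median of 0.90, and that of Tcf7l2 and Lef1 was 0.83. Without early high drinker pool 2 and late high drinker pool 3, r lay between 0.26 and 0.99, with a median of 0.80. The lowest 2 of these values were 0.26 for Tcf7l2 with Lef1 and 0.35 for Lef1 with Lhx9. These low values depended on the Lef1 probe. By A_51_P501145, Lef1 had an r of 0.92 with Tcf7l2 and 0.93 with Lhx9, and 0.85 and 0.86 without the 2 extreme pools. Prkcd with Ramp3 stayed at 0.99. Set against the mean of the other 6 genes, Ramp3 had an r of 0.99, Prkcd 0.97, Gbx2 0.96, Rora 0.94, Lhx9 0.93, Tcf7l2 0.87 and Lef1 0.79. All these points share their arrays, and the genes are not independent of one another.

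Another 16 genes known from thalamic nuclei were listed beside the 7, and each was well above background on all 12 arrays. This list was chosen with earlier results of these data known, so its likeness to the marker mean is a description. Their median r with the marker mean was 0.93, and 9 of 16 had an r of at least 0.8. Over all 14787 annotated genes that were well above background on every array, the median r was 0.06 and 0.872% reached 0.8. Synpo2, an actin-binding protein gene, had an r of 0.99 and a rho of 1, since it ordered the 12 pools exactly as the marker mean did. Gabrd, the delta subunit of extrasynaptic GABA-A receptors, and Tnnt1, a troponin gene, both had an r of 0.98, with ranges of 10.9-fold and 8.33-fold. Gabra4, the alpha4 subunit that pairs with delta in thalamic relay neurons, had an r of 0.97 and a range of 2.03-fold. Ntng1, the gene of the axon guidance protein netrin-G1, had an r of 0.98. Plekhg1 had an r of 0.96, Adarb1, an RNA-editing enzyme, 0.93, the homeobox gene Shox2 0.93 and Slitrk6 0.92.

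The remaining 7 genes of the list kept less closely to the marker mean. Rgs16, a regulator of G-protein signaling, had an r of 0.77, which was 0.92 with the slide means removed, and Cacna1g, a T-type calcium channel gene, had an r of 0.72. Foxp2 was at 0.55, Zic1 and Slc17a6 at 0.48, Zic4 at 0.42 and Rorb at 0.22. Slc17a6, the vesicular glutamate transporter of both thalamic and hypothalamic excitatory neurons, changed only 1.26-fold between its lowest and highest array. Zic1, Zic4 and Foxp2 are also transcribed outside the thalamus, but whether this bears on their r was not tested. In alcohol against water, 0 of these 16 genes had an unadjusted p under 0.05, where 5.53% of all probes did, and their median difference was 0.11, where that over all probes was 0.03.

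**Figure D2:**
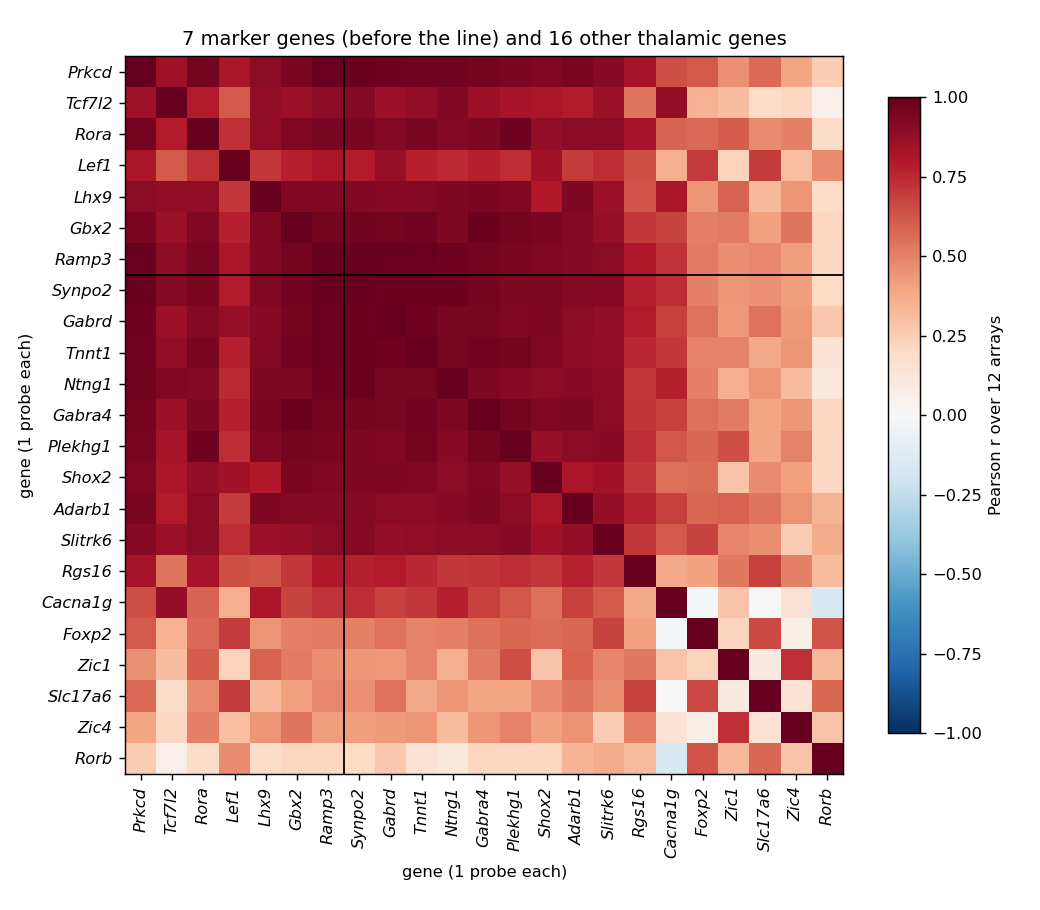
Each cell gives the Pearson r between 2 genes over the 12 arrays, from -1 (blue) to 1 (red), with the 7 marker genes before the black lines and the 16 other thalamic genes after them. The block from Prkcd to Slitrk6 is mostly dark, with Lef1 the palest row among the 7, and the last rows, Foxp2 to Rorb, are pale.

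By likeness to the marker mean over the 12 arrays, the 10 closest genes apart from the 7 were Synpo2, Gabrd, Tnnt1, Ntng1, Vav3, Gabra4, Wnt9a, the transcript A630043P06, Rab37 and Wnt3, with r from 0.99 down to 0.97. The thalamic list, chosen with earlier results of these data known, held 5 of these 10. With the slide means removed, Gckr, Rasl11a and Rasgrp1 entered in place of A630043P06, Rab37 and Wnt3, and 7 of the 10 were shared. The 5 genes with the lowest r were Nrgn (-0.92), Myh8 (-0.89), Pcdh20 (-0.88), Frat1 (-0.88) and Fam221a (-0.87). The changes on this negative side were small. Nrgn, which encodes the calmodulin-binding neurogranin, changed 1.23-fold between its lowest and highest array. An r of at least 0.8 was reached by 129 genes, 24 of which spanned over 1 on the log2 scale, and an r of -0.8 or less by 12 genes, of which 0 did. An r of at least 0.9 was reached by 45 genes and an r of -0.9 or less by 1, Nrgn.

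Of the 23 listed Wnt pathway genes, the 22 that were well above background on every array had a median r of 0.06 with the marker mean. The list did not hold Wnt9a, which was named above for its likeness to the marker mean. The 3 closest on the list were the ligand Wnt3 (0.97), the Wnt inhibitor Nkd1 (0.78) and the receptor Fzd1 (0.72), while the target gene Axin2 was at 0.12 and beta-catenin, Ctnnb1, at 0.20. In alcohol against water, 2 of 23 were higher and 1 lower at an unadjusted p under 0.05, beside 5.53% of all probes in either direction. Among 8 other protein kinase C genes the median r was 0.17, with Prkch at 0.77 and Prkcz at 0.75. The RAMP partners and calcitonin-family genes had a median of -0.16 over 6 genes, with Ramp1 at -0.14 and Ramp2 at -0.18. Of 4 homeobox relatives, Lhx2, which is active in the thalamus and habenula, was at 0.83, and Gbx1, Lhx1 and Lhx5 lay between -0.22 and 0.16. In alcohol against water, 1 of 8 protein kinase C genes (Prkca) and 1 of 7 RAMP and calcitonin-family genes (Calcb) were higher at an unadjusted p under 0.05, and 0 of 4 homeobox relatives were, again beside 5.53% of all probes. Calcb was well above background on only 3 arrays, and so was Rspo3, among the higher Wnt genes. After adjustment over all probes 0 genes of any list passed.

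The regulatory sequence that the Wnt factors recognize was looked for in the 250 bases before the transcription starts of the 7 genes in RefSeq (GRCm38.p6). The letters CTTTGA, the core bound by TCF/LEF proteins, were searched on both strands, and the search matched 2 of 12 promoters, 1 each of Prkcd and Lef1. Over all 32851 promoters, 13.8% held a match. These 2 promoters are shown with the matches in capitals, written on the strand of the gene, where the match reads as its reverse complement.
Prkcd, chr14:30626209-30626458, minus strand: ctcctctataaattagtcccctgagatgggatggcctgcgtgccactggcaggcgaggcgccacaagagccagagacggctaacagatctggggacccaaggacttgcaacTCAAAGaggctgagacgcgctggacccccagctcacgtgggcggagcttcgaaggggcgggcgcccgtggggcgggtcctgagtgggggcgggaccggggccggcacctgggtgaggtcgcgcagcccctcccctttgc
Lef1, chr3:131156044-131156293, plus strand: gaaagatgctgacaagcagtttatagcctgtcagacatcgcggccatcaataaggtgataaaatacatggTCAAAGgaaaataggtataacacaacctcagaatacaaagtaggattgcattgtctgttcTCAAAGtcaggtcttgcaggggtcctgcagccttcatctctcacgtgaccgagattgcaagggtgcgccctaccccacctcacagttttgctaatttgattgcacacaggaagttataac
The match of Prkcd begins 139 bases before the start, and those of Lef1 begin 180 and 120 bases before 1 of its 4 starts. A match of these letters is a description and not a bound site.

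Markers of neighboring tissues were set beside the marker mean in the same way. Hypothalamic transcription factors had a median r of -0.23 over 10 genes and hypothalamic peptide genes a median of -0.29 over 15, with Tac2 lowest at -0.69 and Cartpt highest at 0.39. Fezf1, a factor of the ventromedial nucleus, was at -0.66. The median was -0.34 for the striatum list (6 genes), -0.41 for cortex and hippocampus (4 genes), 0.30 for oligodendrocytes (6 genes) and 0.06 for blood (3 genes). It was -0.31 for the choroid plexus (4 genes), where Otx2, which is also active in the thalamic region during development, was alone at 0.72. It was 0.34 for the pituitary (3 genes). None of these genes reached 0.8. Of the 5 habenula genes, 2 were well above background on every array, Pou4f1 with an r of -0.01 and Nr4a2 with 0.39. Slc17a7, on the cortex list but also active at lower levels in thalamic relay neurons, was well above background on 5 arrays, and over the arrays with a value its r was 0.93. The part of tissue from the thalamus in these levels was not tested.

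**Figure D3:**
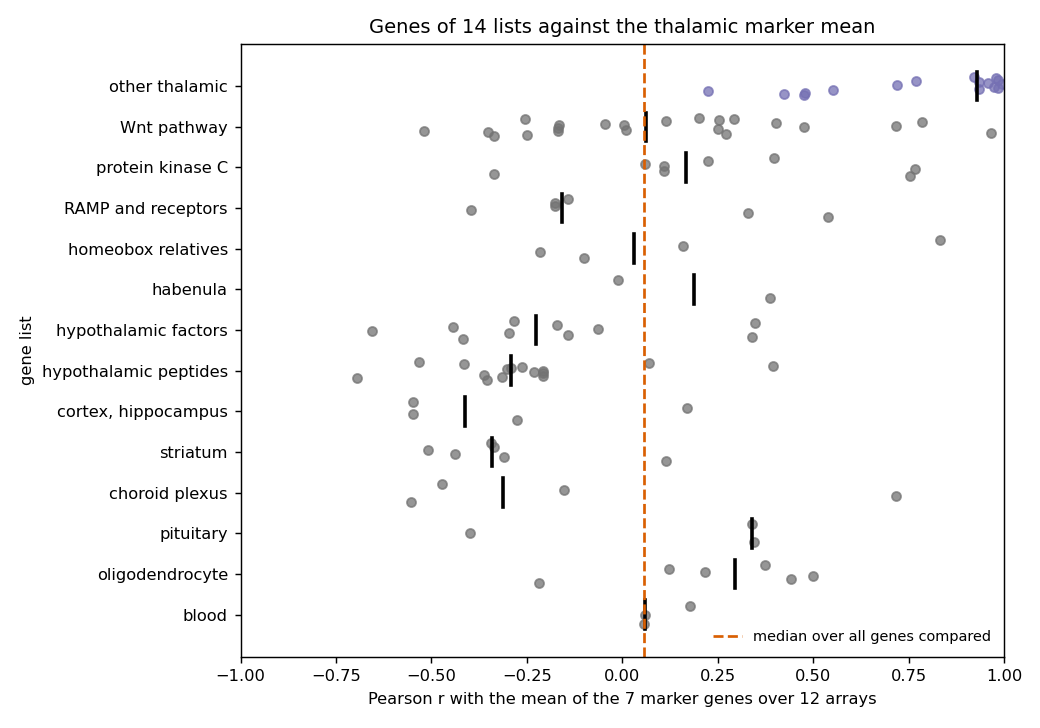
Each point is a gene well above background on all 12 arrays, placed by its Pearson r with the mean of the 7 marker genes, in 14 lists. Black bars are list medians and the dashed line is the median over all genes compared (0.06). The other thalamic genes have a median of 0.93, and the hypothalamic, striatal and cortical lists lie mostly below 0. All lists were chosen with earlier results of these data known.

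The 7 genes were then compared between alcohol and water, the contrast for which the arrays were made. All 7 fitted differences were above 0 and within their errors. In Prkcd the mean level was -0.08 ± 0.26 (SD, n = 3) in water pools and 0.25 ± 1.23 (SD, n = 9) in alcohol pools. The difference was 0.33 with a standard error (SE) of 0.69, and 5 of 9 alcohol pools were above the water mean. Tcf7l2 was at 2.06 ± 0.15 in water and 2.32 ± 0.55 in alcohol pools, a difference of 0.26, with 6 of 9 pools above the water mean. The differences were 0.35 for Gbx2, 0.17 for Ramp3, 0.12 for Lhx9, 0.10 for Rora and 0.04 for Lef1. In limma, 0 of 7 genes, by their brightest probes, had an unadjusted p under 0.05, against 5.53% of all 32376 probes. The smallest adjusted p among these 7 was 0.861, in Gbx2 (limma, Benjamini-Hochberg adjustment over all probes). At an adjusted p under 0.05 the share of all probes was 0%. Of all 16 member probes tested, 1 passed the unadjusted threshold, the dim A_52_P494915 of Tcf7l2, with a difference of 0.97 and a limma adjusted p of 0.819. It was well above background in 1 of 3 water pools, had no value in water pool 1, which the fit left out, and had an r of 0.07 with the brightest probe. With slide as a random block, 4 of the 7 differences were above 0 and 3 below, with a median of 0.02, and that of Prkcd was -0.06. In the exact permutation test over all 220 choices of 3 arrays, the two-sided p lay between 0.418 and 0.8. In each gene the alcohol pools reached both above and below the water pools. The SD of Prkcd was 1.23 in alcohol and 0.26 in water pools, and that of Ramp3 was 0.90 and 0.18. Water pools held 3 mice each and alcohol pools 1 to 3, and the water pools shared 1 slide where the alcohol pools lay on 3. The labels do not say how many mice each alcohol pool held. The parts of pool size and of the slide in this spread were not tested.

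Within each drinking group, 1 pool lay far from the other 2 in Prkcd. In Prkcd the means were 0.36 ± 1.42 in low drinkers, -0.27 ± 1.27 in early high drinkers and 0.68 ± 1.31 in late high drinkers (SD, n = 3 each). Low drinker pool 1 lay 2.40 below the mean of the other 2 low drinker pools, early high drinker pool 3 lay 2.20 above the other 2, and late high drinker pool 3 lay 2.18 above the other 2. Ramp3 was at 0.84 ± 1.03, 0.30 ± 1.00 and 1.18 ± 0.76 in the same groups. Gbx2 was at -1.92 ± 0.74, -2.49 ± 0.65 and -1.78 ± 0.60. These 3 groups overlapped in Prkcd, Ramp3 and Gbx2.

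Tcf7l2, by its brightest probe, was the exception in that its 3 late high drinker pools stood above the water and low drinker pools without overlap. By A_52_P146043, the probe least like it, late high drinkers were at -1.88, -2.05 and -1.25 and overlapped low drinker pools 2 and 3, at -1.50 and -1.58. By the other bright probe, A_52_P316355, they were at -2.32, -2.46 and -1.99, again above all water and low drinker pools. Its means were 2.17 ± 0.42 in low, 2.01 ± 0.67 in early high and 2.79 ± 0.24 in late high drinkers (SD, n = 3 each). In limma over the 4 groups, late high drinkers differed from water by 0.73 and from early high drinkers by 0.78, both at an unadjusted p under 0.05 and at adjusted p of 0.298 and 0.370. By A_52_P146043 these differences were 0.30 and 0.19, with adjusted p of 0.709 and 0.848 in limma. By A_52_P316355 they were 0.67 and 0.60, with adjusted p of 0.333 and 0.455 and neither at an unadjusted p under 0.05. Tcf7l2 was the 1 gene of 7 to pass the unadjusted threshold in these contrasts, where 15.9% and 12.4% of all 31622 probes passed. All 3 late high drinker pools were on slide 3, and so was the early high drinker pool 3, which had the second highest level of Tcf7l2. The unadjusted p of Tcf7l2 against water rose above 0.05 with slide as a random block and without any 1 of water pools 1, 2 and 3, low drinker pool 3, early high drinker pool 1 and late high drinker pools 1 and 3. Against early high drinkers the count of 7 genes at that threshold ran from 0 without late high drinker pool 3, or without early high drinker pool 1 or 2, to 5 without early high drinker pool 3, and it was 2 with the replicate number as a block. It was 0 with slide as a random or as a fixed block, and under the fixed block the difference of Tcf7l2 was 0.03. For late high drinkers against water, the difference of Tcf7l2 turned to -1.13 under the fixed block, whose limits are given below.

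In the other contrasts 0 of 7 genes, by their brightest probes, passed an unadjusted p of 0.05, where 9.08% of all probes passed for low drinkers against water, 4.7% for early high drinkers against water, 5.1% for early high against low drinkers and 22.9% for late high against low drinkers. The dim A_52_P494915 of Tcf7l2 passed for low drinkers against water, with a difference of 1.25 and a limma adjusted p of 0.548, where 1 pool of each group was well above background. Without low drinker pool 1, 1 of 7 passed for low drinkers against water and 1 for early high against low drinkers. Without early high drinker pool 3, 2 passed for early high and 1 for late high against low drinkers. After adjustment over all probes, 0 of 7 genes passed in any of the 6 contrasts. The share of all probes that passed was 0.218% for low drinkers against water, 0.851% for late high against low drinkers and 0.00632% for early high against low drinkers, and 0% in the other 3. These adjusted counts depended on single arrays and on the settings. Without low drinker pool 1 they were 2482 probes for low drinkers against water and 4146 for late high against low drinkers, of 30662 tested, where all arrays gave 69 and 269 of 31622. Low drinkers against water had 0 without early high drinker pool 3, late high against low drinkers had 0 without early high drinker pool 2 or late high drinker pool 1, and both had 0 when spots of low signal to noise were kept. Late high drinkers had up to 442 against water, without late high drinker pool 3, and up to 199 against early high drinkers, without early high drinker pool 3. Early high against low drinkers had 2 over all arrays, 101 without low drinker pool 1 and 54 with slide as a fixed block. Low drinkers against water had 0 with slide as a fixed block, 30 with it as a random block and 6 with quantile normalization. Late high against low drinkers had 21 with the fixed block, 4 with the random block, 104 with quantile normalization and 1200 with normexp background correction. With the replicate number as a block, low drinkers against water and late high against low drinkers had 7 each. Over probes well above background on all 12 arrays they had 1 and 402. The contrasts share groups and are not independent. In early high drinkers against water all 7 differences were below 0 (median -0.13), and in late high drinkers against water all 7 were above 0 (median 0.57). The medians over all probes were 0.02 and 0.00 in the same contrasts. Since the 7 genes move together, equal signs among them carry little beyond a single gene.

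**Figure D4:**
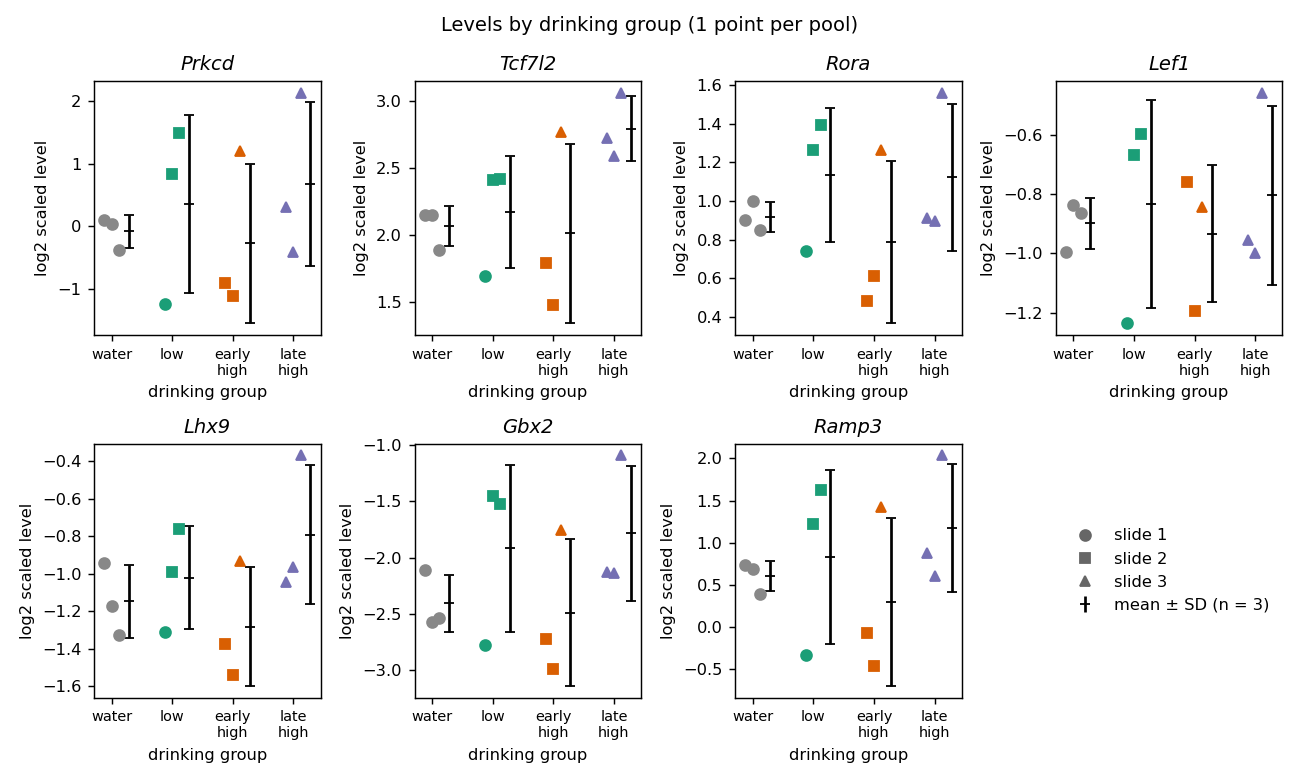
Each panel shows the log2 scaled level of 1 gene, with 1 point per pool, the drinking group on the horizontal axis, the symbol for the slide, and bars for the mean ± SD of 3 pools. Low drinker pool 1 (circle) is below the other low drinkers and late high drinker pool 3 above the other late ones in each gene, and early high drinker pool 3 (triangle) is above the other early ones in each gene but Lef1.

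Within a slide, groups could be compared directly only in part. On slide 2, low drinker pools 2 and 3 were above early high drinker pools 1 and 2 in 7 of 7 genes, and the difference in Prkcd was -2.16 (early minus low). On slide 1, low drinker pool 1 was below all 3 water pools in 6 of 7 genes, and 1.17 below their mean in Prkcd. On slide 3, the mean of the 3 late high drinker pools differed from early high drinker pool 3 by -0.52 in Prkcd and 0.03 in Tcf7l2. With slide as a fixed block in limma, all 7 alcohol differences turned negative, with a median of -0.37, an estimate that rests on low drinker pool 1 as the sole alcohol pool beside the water pools. All 7 early against low drinker differences were negative (median -0.78), and 6 of 7, all but Lef1, had an unadjusted p under 0.05, where 12.7% of all probes passed. This estimate equals the comparison on slide 2, of 2 against 2 pools, and takes nothing from low drinker pool 1 and early high drinker pool 3, which in Prkcd stood in the opposite order (-1.24 and 1.20). Early high drinkers against water, late high against low drinkers and late high drinkers against water each had 5 of 7 genes at an unadjusted p under 0.05, all lower, against 6.94%, 11.9% and 7.77% of all probes. In each of the 3, the other 2 genes were Lef1 and Lhx9. In this fit the water pools are linked to the other slides only through low drinker pool 1, and the late high drinkers only through early high drinker pool 3. Each is a single pool that lay apart from its group, so that these 3 differences carry its own deviation. With slide as a random block, 0 of 7 genes had an unadjusted p under 0.05 in any of these 4 contrasts. The median was then -0.38 for early high against low drinkers, -0.20 for early high drinkers against water, 0.07 for late high against low drinkers (6 of 7 higher) and 0.27 for late high drinkers against water (7 of 7 higher). With the replicate number as a block, early high against low drinkers also had 0 of 7. No gene of the 7 passed adjustment, and the smallest adjusted p under the fixed block was 0.136. The late against water differences were thus negative under the fixed block alone (median -1.13), and above 0 under the random block and without the slide (median 0.57). The early against low differences were negative in all 3 fits.

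The last comparison asked how far the marker mean accounts for differences between drinking groups over the whole array. On the 29521 probes measured in all 12 pools, 8.85% of the whole variance lay along the marker mean, about its share of the degrees of freedom among 12 arrays (9.09%). The share was 38.2% between the 4 groups, 43.6% between the 3 slides and 12.3% between alcohol and water, which held 27.3%, 18.2% and 9.09% of the degrees of freedom. These shares overlap and do not add up. Of the variance of Prkcd, 13.2% lay between the groups, and 22.2% of Rora, 18.8% of Ramp3, 28.3% of Gbx2, 36.0% of Lhx9, 45.4% of Tcf7l2 and 5.41% of Lef1, beside a median of 35.5% over all those probes. So 5 of the 7 genes lay below that median and Lhx9 and Tcf7l2 above it.

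With the marker mean as a covariate in the fit, 1351 of 32376 probes had an unadjusted p under 0.05 for alcohol against water, compared with 1789 without it. With slide as a fixed block the direction turned, with 917 and 681. Of the 1789, 1242 (69.4%) passed in both, which were 91.9% of the 1351. At an adjusted p under 0.05 there were 0 in both fits. For low drinkers against water the counts were 2870 without and 2318 with the marker mean, and 69 and 15 after adjustment. For late high against low drinkers they were 7229 and 7524, and 269 and 7 after adjustment. Here the rise became a fall with slide as a fixed block (3777 and 2665) and with no scaling between arrays (9324 and 7533). A rise or fall of these counts also turned under 1 or more alternatives in each of the other 5 contrasts. For late high drinkers against water they were 5032 and 4723, for late high against early high drinkers 3924 and 3824, for early high against low drinkers 1614 and 1489, and for early high drinkers against water 1486 and 1654. In the 6 contrasts between groups, 66.5% to 89.9% of the probes at an unadjusted p under 0.05 still passed with the marker mean. The lower adjusted counts of the 2 contrasts with the marker mean turned to higher ones without single arrays. Without low drinker pool 1 they were 2482 and, with the marker mean, 2582 for low drinkers against water, and 4146 and 4337 for late high against low drinkers. Without early high drinker pool 3 the latter were 773 and 994. The count of 1654 for early high drinkers against water with the marker mean was 3334 without early high drinker pool 3. The added term also costs a degree of freedom.

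**Figure D5:**
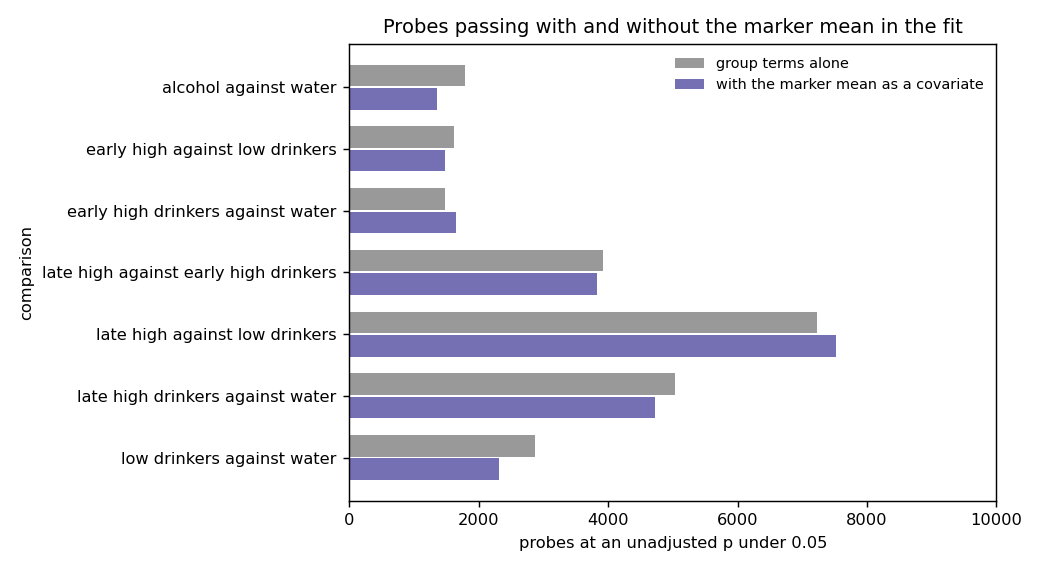
Horizontal bars give the number of probes at an unadjusted p under 0.05 in each of 7 comparisons, with group terms alone (gray) and with the mean of the 7 marker genes as a covariate (purple). For alcohol against water the number falls from 1789 to 1351, and for late high against low drinkers it rises from 7229 to 7524. Both directions turn with slide as a fixed block.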

How the data were processed

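Hypothalamic RNA of 12 pools was measured on Agilent 1-color arrays. The authors deposited each array's scanner output, with background-corrected signal intensity per spot on a linear scale (Feature Extraction 10.5.1.1 in the files), not scaled between arrays. The authors' deposited table of intensity per probe lay within 1% of the mean of those spots for 99.9% of probes and was used as an alternative. For each array, the log2 of its 75th percentile over 43379 non-control spots was subtracted from log2 intensities. Spots marked non-uniform, or whose intensity was under 2 times its deposited error, were dropped. Testing needed a value in at least 2 of 3 water pools and 5 of 9 alcohol pools, or in 2 of 3 pools of each of the 4 groups. The fits used limma 3.58.1 (R 4.3.3) with lmFit, eBayes and Benjamini-Hochberg adjustment over all probes. The number of arrays limits the precision.

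The 7 genes, the gene lists and the tests were chosen with earlier results of these data known. Named were the probes of the 7 genes, listed genes by the probe with the highest mean, and the 10 highest and 5 lowest r with the marker mean (10 highest also with slide means removed). Lists covered thalamus, habenula, hypothalamus, cortex, striatum, choroid plexus, pituitary, oligodendrocytes, blood, and the Wnt, protein kinase C, RAMP and homeobox families. Results of 1 further listed family are not reported here. Of 41174 probes, 25097 took their symbol from RefSeq accessions. Alternatives were quantile or no scaling, normexp (offset 50), the authors' table, filters, slide and replicate number as blocks, each array left out and the methods' t-test. The fits were tested on simulated data with 200 probes moved. Figures were drawn with matplotlib 3.10.9.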

Additional observations from a re-analysis of the deposited data

Results flagged for a closer look

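Among 27 measures checked over the 9 alcohol arrays (the levels of the 7 genes, their mean, the 16 other thalamic genes and 3 measures of the array), 1 had a value far from the rest, where chance gives about 1.35. It was the 25th percentile of intensity, 63.2 in low drinker pool 2 and 34.0 on the next array. The 7 genes and their mean had none. The marker mean of low drinker pool 2 was 0.37, the fourth highest of the 12.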

How the results depend on the processing

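The median r of the 21 pairs of marker genes lay between 0.85 and 0.93 under the alternatives run, but was 0.80 without early high drinker pool 2 and late high drinker pool 3 together. The counts of all probes at an unadjusted p under 0.05 depended more on the processing, and the cause was not tested. For alcohol against water the count of 1789 became 1105 with normexp, 681 with slide as a fixed block and 527 with slide as a random block, and with the marker mean in the fit 1351 became 840 with normexp, 917 with the fixed block and 431 with the random block. With slide as a fixed block the counts were 946 for low drinkers against water, 2457 for late high drinkers against water, 4021 for early high against low, 3777 for late high against low, 1515 for late high against early high drinkers and 2479 for any difference among the 4 groups (4558 without). With the random block they were 1770 for low and 755 for early high drinkers against water, and 2939 for any difference. Without the signal/noise filter they were 5699 for low drinkers against water and 11267 for late high against low drinkers, and over probes well above background on all 12 arrays 1680 for low drinkers against water.

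Leaving out 1 array at a time, the count ran from 1169 to 2919 for alcohol against water, and from 925 to 2616 with the marker mean. It ran from 1105 to 6258 for low, from 968 to 2489 for early high and from 3515 to 5615 for late high drinkers against water, from 1233 to 4346 for early high against low, from 4864 to 9281 for late high against low, from 2290 to 4748 for late high against early high drinkers, and from 2777 to 7710 for any difference. The highest counts for alcohol, low drinkers and early high drinkers against water, early high against low drinkers and any difference came without low drinker pool 1. Other arrays whose absence moved a count over 1.5 times, with or without the marker mean, were water pools 1 to 3, low drinker pools 2 and 3, early high drinker pools 1 to 3 and late high drinker pools 1 and 2. With the marker mean, counts ran from 1117 to 6660 for low, from 992 to 3334 for early high and from 2646 to 5581 for late high drinkers against water, and from 1945 to 5136 for late high against early high drinkers. Counts after adjustment ran from 0 to 2482 for low drinkers against water and from 0 to 4146 for late high against low drinkers, and with the marker mean from 1 to 2582 and from 0 to 4337. Without low drinker pool 2 and late high drinker pool 3 together, chosen after seeing the data, the counts were 2175 for alcohol against water with the marker mean, and 1093 for low and 2444 for early high drinkers against water.

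The alcohol difference of the 7 genes changed sign in 16 of 161 values, among them all 7 with slide as a fixed block. The methods' t-test gave 1688 probes for alcohol against water. The replicate number as a block gave 1684 for alcohol against water, 1205 with the marker mean and 4381 for any difference. Same-numbered pools of different groups had correlations of their deviations between -0.16 and 0.17, so the numbers do not pair the pools. Dim probes, 1 each of Lef1, Lhx9 and Tcf7l2, limit what can be said of those transcripts.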

Other observations

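Over the 26040 probes well above background on every array, the first 3 principal components held 35.7%, 17.1% and 8.64% of the variance. The size of their correlation with the marker mean over the 12 arrays was 0.11, 0.43 and 0.75, so the marker mean lay closest to the third. Of the 24 genes whose r with the marker mean was at least 0.8 and whose level spanned over 1 on the log2 scale, Rab37, a small GTPase gene, spanned 3.45-fold. Gckr, the glucokinase regulator, spanned 2.42-fold.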
